A study of Mus musculus with 6 samples.

Results

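The cells described here are lung fibroblasts (FBs) of mice given PBS or bleomycin once a week for 3 weeks. They were chosen by their own counts of 6 genes. A member was a barcode with at least 2000 unique molecular identifiers (UMIs, each standing for 1 captured RNA molecule), with 0 UMIs of Ptprc, Pecam1 and Epcam, which mark leukocytes, endothelium and epithelium, and with at least 3 UMIs of Col1a1, Col1a2 and Pdgfra summed. This rule took 5096 of the 6139 barcodes of the PBS library and 5280 of the 10737 barcodes of the bleomycin library, 10376 in all, out of 33286 barcodes in the 6 libraries of the series. The levels of those 6 genes in the members describe the choice and are not a result.

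All animals carried the PDGFRa-EGFP reporter, in which GFP is made where Pdgfra is expressed, so the sort was for cells with an active Pdgfra locus. The study's methods describe male mice of 10 to 14 weeks. The control mice received PBS. The injured mice received bleomycin, 1 U/kg at each of the first doses and 0.5 U/kg at the last. Each dose was given in 50 µl by oropharyngeal aspiration. Lungs were taken 2 weeks after the last dose, and the sorted cells of 3 mice were pooled into 1 library per treatment. No value here therefore has a replicate check. Differences between mice, between libraries and between treatments cannot be told apart, no test between treatments was possible, and the intervals given are exact 95% Poisson or Clopper-Pearson intervals that cover counting error only.

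Bleomycin is a drug that breaks DNA and is used to model lung fibrosis. Alveolar FBs that hold lipid droplets (lipofibroblasts, LipoFBs) sit beside alveolar type 2 cells, store retinoids and fatty acids, and send niche signals to the epithelium. Matrix or adventitial FBs (MatrixFBs) line vessels and airways, and in fibrosis contractile myofibroblasts (MyoFBs) lay down collagen, elastin and the proteins that bind growth factors in the matrix.

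The PBS members held 55984047 UMIs with a median of 10517 per member and a range from the 10th to the 90th percentile of 5196 to 16771. The bleomycin members held 54589302 UMIs with a median of 8370 and a wider range of 2413 to 20717, and 30.1% of them had fewer than 4000 UMIs against 4.51% of the PBS members. Thus 1 UMI was worth 0.0179 and 0.0183 CPM, the count of a gene divided by the summed count of its library and scaled to 1000000. Mitochondrial genes took a median of 2.98% and 3.18% of the UMIs, and the same barcode sequence occurred in both libraries 28 times, 12 of them among members.

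The values just inside and just outside the limits were these. In the bleomycin library, the 617 members nearest the UMI limit, with a median of 2228 UMIs, had 5128 CPM of Col3a1, and the 982 barcodes nearest below it that met the other limits, with a median of 1729 UMIs, had 5189 CPM. In the PBS library the corresponding values were 1804 CPM in 34 members and 1386 CPM in 43 barcodes. The 31 bleomycin members with exactly 3 UMIs of the 3 FB genes had 2548 CPM of the macrophage gene Lyz2, and the 19 barcodes with 2 such UMIs had 7913 CPM.

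Cells other than FBs could enter where their own markers were missed. Among the bleomycin members, 278 (5.27%) lay in 4 clusters led by macrophage, plasma cell or alveolar type 2 cell genes, against 3 PBS members (0.0589%). All 11 macrophage and monocyte markers were higher in the bleomycin members, with a summed level of 27.3 CPM in PBS and 223 CPM in bleomycin, and of 21.2 and 61.3 CPM once those 4 clusters were left out. All 8 plasma cell markers were higher as well, at 519 and 1914 CPM, or 4.99 and 164 CPM without those clusters, and Ighg2b was at 0 in PBS. The summed markers of epithelium were at 153 and 128 CPM (6 of 11 higher, Scgb3a1 at 0 in PBS). Those of endothelium were at 131 and 104 CPM (5 of 9 higher). Without the clusters led by other cell types epithelium was at 88.1 and 95.1 CPM. Both falls over all members rested on 1 gene each, which fell by more than its sum did. These were Hopx for epithelium (45.5 and 7.62 CPM) and Tmem100 for endothelium (101.5 and 50.7 CPM). In the remaining FBs, described below, Hopx was at 48.3 and 7.62 CPM and Tmem100 at 98.8 and 40.6 CPM. The sums are therefore not read as amounts of stray epithelium or endothelium. Markers of B cells (1.54 and 8.63 CPM, 6 of 6 higher), T cells (2.5 and 4.65 CPM, 6 of 8 higher), neutrophils (1.75 and 2.34 CPM, 3 of 6 higher, Retnlg at 0 in bleomycin), erythrocytes (0.572 and 0.806 CPM) and Schwann cells (2.41 and 2.66 CPM) stayed below 10 CPM in both.

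Summed over all members, 8761 genes had a mean of at least 10 CPM over both libraries. After adding 1 CPM to each value, 422 of them (4.82%) were at least 2-fold higher in bleomycin and 199 (2.27%) at least 2-fold lower. The counts of higher and lower genes given below for each list stand beside these shares. Over all genes entered, the log2 ratio (bleomycin over PBS) had a median of 0.08, and the middle 80% of genes lay between −0.42 and 0.59. Both libraries reached 10 CPM for 250 of the genes that were higher and for 170 of those that were lower. With summed counts, fewer cells of a type and less RNA per cell cannot be told apart.

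**Figure D1:**
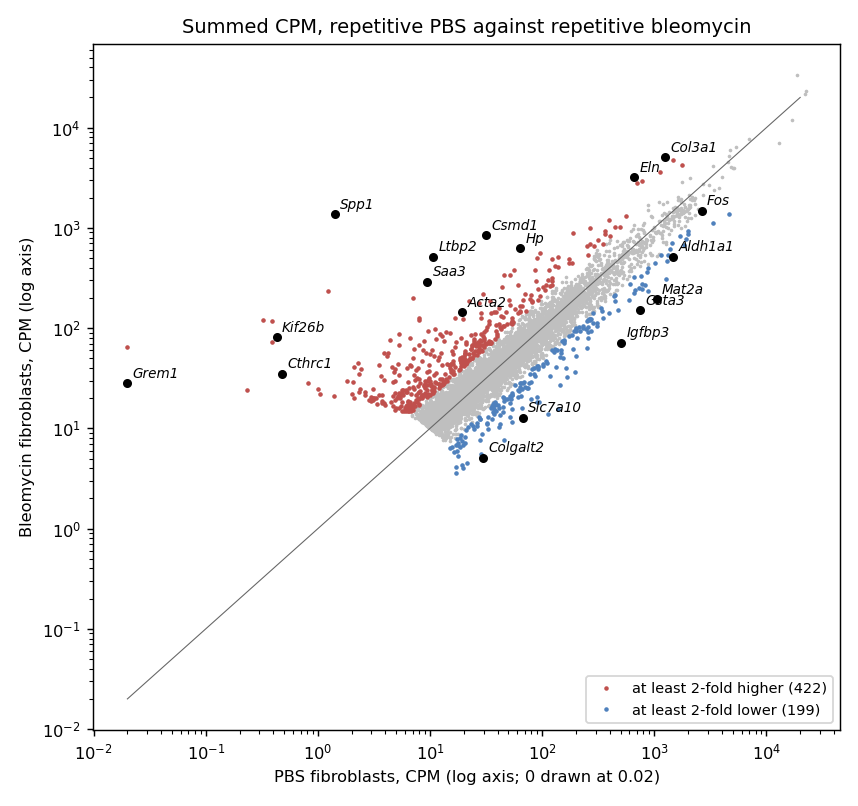
Level of each gene in the members of the PBS library (horizontal, CPM, log axis) and of the bleomycin library (vertical, CPM, log axis), with 1 point per gene, colour for genes at least 2-fold apart and names on selected genes. Genes at 0 in PBS are drawn at the left edge, at 0.02 CPM. Spp1 stands at 1.41 against 1375 CPM and Igfbp3 is among the farthest below it, at 507 against 71.6 CPM.

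Most collagen genes entered were at least 2-fold higher after bleomycin. Col1a1 and Col1a2 were used to choose the members and were left out of the fibrillar collagen values. Of the other 5 fibrillar collagen genes entered, 4 were at least 2-fold higher and none lower, with a median log2 ratio of 1.41, where 4.82% of all genes were higher and the median of all was 0.08. Col3a1, the chain of type III collagen, was at 1234 CPM (1225 to 1243) in the PBS library and at 5057 CPM (5038 to 5076) after bleomycin, a log2 ratio of 2.03. As a description, Col1a1 was at 695 and 2803 CPM and Col1a2 at 1125 and 3568 CPM. Among the other collagens 7 of 12 were higher and none lower, with a median of 1.15, or of 0.73 over the 18 genes with a mean of at least 1 CPM. Col8a1, a short-chain collagen, was at 2.84 and 19.3 CPM (log2 ratio 2.40), and Col4a2, of basement membrane, was at 114 and 378 CPM (1.71).

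Elastic fibre genes were higher in 5 of 13 cases and lower in none, with a median of 0.95. Elastin itself (Eln) was at 664 CPM (657 to 670) without injury and at 3185 CPM (3170 to 3200) after bleomycin, a log2 ratio of 2.26. Mfap2, a microfibril protein, was at 42.6 and 131 CPM (1.60). Efemp1 and Fbln5, which belong to the fibulin family, were at 526 and 315 CPM (−0.74) and at 80.95 and 61.9 CPM (−0.38), so the list did not move as 1 block. The crosslinking enzyme Lox was at 200 and 234 CPM (0.23), close to the median of all genes, whereas P4ha3, a prolyl hydroxylase subunit for collagen, was at 1.00 and 24.7 CPM (3.68). Pcolce2, an enhancer of procollagen processing, went the other way, at 1926 and 780 CPM (−1.30). Over the whole list of crosslinking and processing genes, 8 of 19 were higher and 1 was lower.

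Matricellular genes, whose products sit in the matrix and signal to cells, held the largest ratio of any gene entered once 1 CPM was added. Of 20 entered, 11 were higher and 1 lower, with a median of 1.33, or of 0.32 over the 13 genes with a mean of at least 50 CPM. Spp1 (osteopontin) had 79 UMIs in all PBS members, or 1.41 CPM (1.12 to 1.76), and 1375 CPM (1365 to 1385) in bleomycin, a log2 ratio of 9.16. Cthrc1, a secreted marker of collagen-producing FBs, was at 0.482 CPM (0.318 to 0.702) and 35.2 CPM (33.7 to 36.9), a ratio of 4.61. Ltbp2, a microfibril protein that takes its name from the family of latent TGF-β binding proteins, was at 10.6 and 513 CPM (5.47). Binding of TGF-β was not measured here. Macrophages also make Spp1. Immune barcodes of the same libraries, taken as those with at least 2 Ptprc UMIs, held 41.3 CPM of it in PBS and 3449 CPM in bleomycin, and the bleomycin members outside the 4 clusters led by other cell types still held 1360 CPM (9.14). Ccn1 and Ccn2, which respond to cell stretch and serum, were at 1303 and 464 CPM (−1.49) and at 391 and 267 CPM (−0.55).

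Shares of members with a UMI were compared after each member was thinned to 2000 UMIs. Ltbp2 was found in 1.67% (1.33 to 2.06) of PBS members and 43.0% (41.7 to 44.4) of bleomycin members, and in 4.75% and 63.7% before thinning. Immune barcodes, which should lack it, showed it in 0.395% and 15.3%, with median depths of 6117 and 7046.5 UMIs before thinning. Spp1 was found in 0.0785% and 11.9% of members (0.196% and 22.1% unthinned), and 0.511% of the bleomycin members held 50% of its thinned UMIs. The share of bleomycin members with Spp1 was below that of immune barcodes (21.9%), so it is not read as the share of FBs that express the gene. Col3a1 was found in 77.4% and 98.3% of members (97.6% and 99.8% unthinned) against 22.9% and 41.6% of immune barcodes. The share for Eln was 53.9% and 87.2% (85.7% and 96.3% unthinned) against 16.6% and 32.5%.

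Growth factor pathways held genes in both directions. In the TGF-β list 6 of 24 genes were higher and none lower, with a median of 0.58. The ligand gene Tgfb1 was at 22.8 and 39.0 CPM (0.75). The activin subunit Inhba was at 1.80 CPM (1.47 to 2.19) and 29.5 CPM (28.0 to 30.9), a ratio of 3.44, and follistatin (Fst), which binds and blocks activins, was at 7.93 and 120 CPM (3.76). Both an activin chain and its inhibitor were thus higher. Among BMP and Id genes 4 of 14 were higher and 1 lower. The BMP antagonist Grem1 had 0 UMIs in PBS and 28.2 CPM in bleomycin, which is at least 526-fold higher when PBS is set at a floor of 3 counts over the library (0.0536 CPM). Chrdl1, another BMP antagonist, was at 134 and 41.4 CPM (−1.67), in the opposite direction.

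Of 13 Wnt pathway genes, 5 were higher and none lower, with a median of 0.64. The secreted Wnt antagonist Sfrp1 was at 56.2 and 380 CPM (2.73), and Dkk2, which acts on the Wnt co-receptor, at 4.16 and 52.6 CPM (3.38). In the growth factor list 7 of 18 were higher and none lower. It held the heparin-binding factor Mdk at 43.7 and 260 CPM (2.55) and the EGF receptor ligand Ereg at 0.822 and 28.5 CPM (4.02). Of 8 IGF binding protein genes, 3 were higher and 1 lower, and the ends of that list were far apart. Igfbp3, the main carrier of IGF in blood, was at 507 CPM (501 to 513) and 71.6 CPM (69.4 to 73.9), the lowest ratio of any gene named here (−2.81), and Igfbp4 was at 367 and 929 CPM (1.34).

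**Figure D2:**
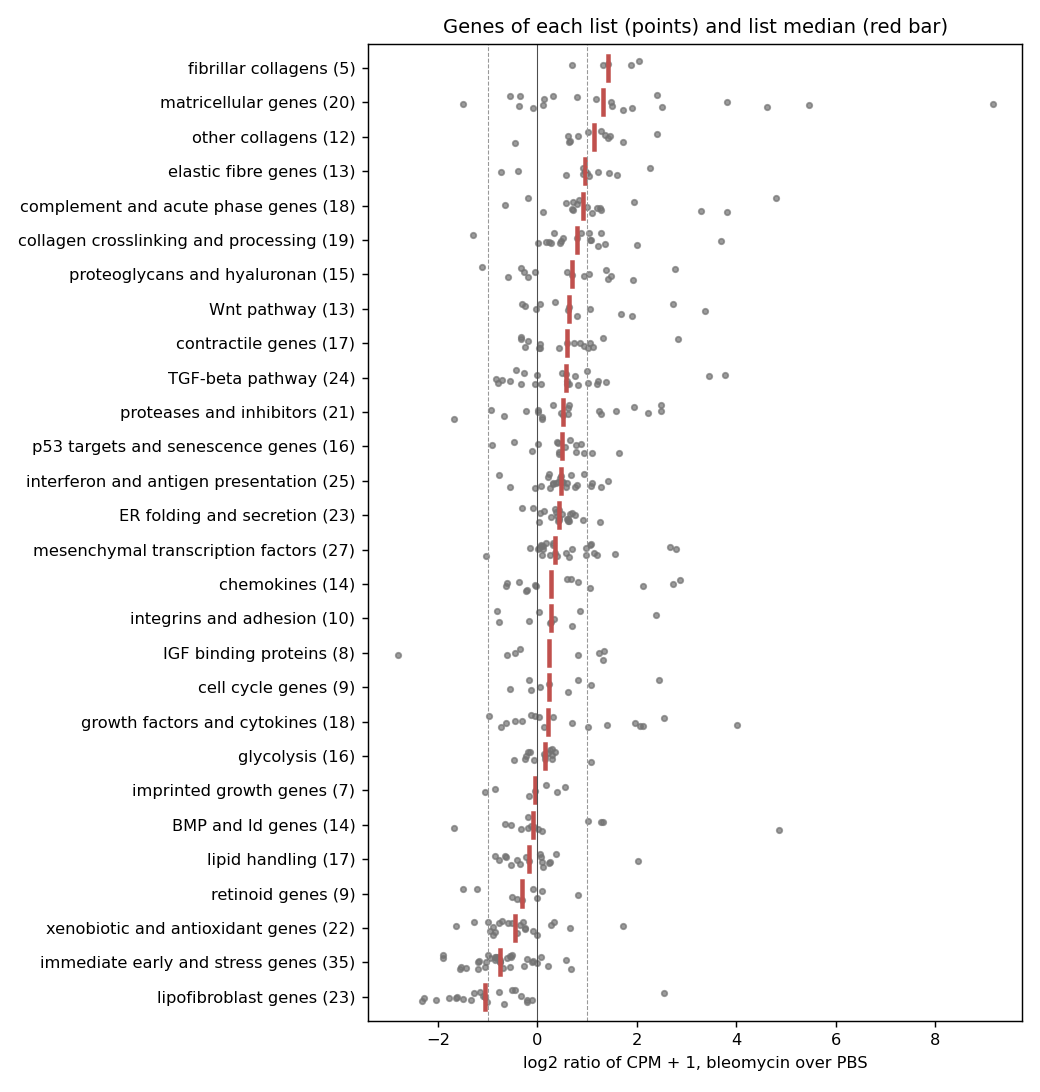
Log2 ratio of bleomycin over PBS (horizontal) for the entered genes of each of 28 gene lists (vertical), with 1 point per gene, a red bar at the median of each list, a solid line at 0 and dashed lines at 2-fold. Col1a1 and Col1a2 are left out. Fibrillar collagens have the highest list median (1.41), close to that of matricellular genes (1.33), and LipoFB genes the lowest (−1.06).

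Contractile genes were higher in 5 of 17 cases and lower in none, with a median of 0.59. Smooth muscle actin (Acta2) was at 19.3 CPM (18.2 to 20.5) and 144 CPM (140 to 147), a ratio of 2.83, and Tagln, an actin-binding protein of smooth muscle and MyoFBs, was at 96.2 and 211 CPM (1.13). Tagln fell under 2-fold after each member was thinned to 2000 UMIs. Among proteases and their inhibitors 7 of 21 were higher and 1 lower. The inhibitor Timp1 was at 89.2 and 505 CPM (2.49), and the proteoglycan-cleaving enzyme Adamts9 was at 255 and 78.9 CPM (−1.68). Of 15 proteoglycan and hyaluronan genes, 6 were higher and 1 lower. Lumican (Lum) was at 41.1 and 158 CPM (1.92) and osteoglycin (Ogn) at 1987 and 923 CPM (−1.10), although both belong to the small leucine-rich family.

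LipoFB genes were the list with the lowest median, −1.06. Of 23 entered, 14 were at least 2-fold lower, where 2.27% of all genes were, and 1 was higher. This list was chosen with earlier results of these libraries known, and the study used several of its genes to name its populations, so its direction is not independent evidence. Gsta3, a glutathione transferase, was at 741 CPM (734 to 748) and 151 CPM (148 to 154), a ratio of −2.29. The methyltransferase gene Inmt was at 4678 and 1369 CPM (−1.77), and G0s2, an inhibitor of fat breakdown, at 1264 and 305 CPM (−2.05). The lipid droplet coat gene Plin2 was at 258 and 102 CPM (−1.33) and the mesenchymal transcription factor Tcf21 at 448 and 186 CPM (−1.27). Pparg, the nuclear receptor that drives fat cell genes, was at 20.9 and 9.54 CPM (−1.06).

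Other genes of that list differed by less than 2-fold. Col13a1, a transmembrane collagen used to name alveolar FBs, was at 255 and 220 CPM (−0.21), and the ligand Fgf10 was at 183 and 133 CPM (−0.46). Lpl, the lipase that releases fatty acids from lipoproteins, was the 1 gene of the list with a higher level after bleomycin, at 95.4 and 563 CPM (2.55). Lpl is also a macrophage gene, and immune barcodes held 240 and 654 CPM. It was found in 12.7% and 50.9% of thinned members (32.7% and 75.9% unthinned) against 9.49% and 28.8% of immune barcodes.

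The metabolic lists beside it moved less. Of all genes entered 4.82% were higher and 2.27% lower, so 1 higher gene in a list of this size is not read as a result about the list. Among xenobiotic and antioxidant genes 2 of 22 were lower and 1 higher, with Gstm1 at 770 and 246 CPM (−1.64). Among retinoid genes 2 of 9 were lower and none higher. These were Aldh1a1, which makes retinoic acid, at 1463 and 516 CPM (−1.50), and Lrat, which esterifies retinol for storage, at 217 and 93.2 CPM (−1.21). In lipid handling 1 of 17 was higher and none lower. That gene was Fabp5, a fatty acid carrier, at 6.34 and 28.9 CPM (2.03), and 45.3% of its bleomycin UMIs came from a macrophage-led cluster of 56 members. Without the 4 clusters led by other cell types its ratio was 1.29. Within the MatrixFB-like members described below its ratio was only 0.32 (7.67 and 9.84 CPM). In the remaining FBs, also described below, it was 0.36 (4.02 and 5.46 CPM).

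Several genes on no list were lower to the same degree. Mat2a, which makes the methyl donor S-adenosylmethionine, was at 1050 CPM (1041 to 1058) and 194 CPM (190 to 198), a ratio of −2.43. Gria1, a glutamate receptor subunit, was at 144 and 27.2 CPM (−2.36), Mapt, the microtubule protein tau, at 168 and 32.7 CPM (−2.33), and Colq, the collagen tail of acetylcholinesterase, at 90.8 and 18.5 CPM (−2.23). The leptin receptor Lepr was at 163 and 39.8 CPM (−2.01). Gsta3 and Mat2a were found in 67.7% and 61.2% of thinned PBS members and in 22.2% and 25.7% of thinned bleomycin members (92.7% and 90.3%, and 45.6% and 58.9%, unthinned). Immune barcodes showed Gsta3 in 16.996% and 4.69% and Mat2a in 30.04% and 16.2%.

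The largest ratios among unlisted genes in the other direction included these. Csmd1, a complement-regulating membrane protein, was at 31.8 CPM (30.4 to 33.3) and 842 CPM (834 to 849), a ratio of 4.68. The cell adhesion gene Chl1 was at 0.393 and 72.7 CPM (5.72), and the kinesin Kif26b at 0.429 and 81.6 CPM (5.85). Piezo2, a stretch-gated channel, was at 8.04 and 126 CPM (3.81). Csmd1 was found in 2.61% and 40.5% of thinned members (4.34% and 53.6% unthinned) against 0.791% and 11.6% of immune barcodes. The transcription factors Runx1 and Runx2, known from blood and bone, were at 27.2 and 178 CPM (2.66) and at 4.86 and 39.4 CPM (2.78), and in that list 7 of 27 were higher and 1 lower. Immune barcodes held more of both, 348 and 325 CPM of Runx1 and 67.3 and 93.2 CPM of Runx2.

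Complement and acute phase genes, most of which are best known from liver, were higher in 9 of 18 cases and lower in none, with a median of 0.92. Saa3, an acute phase serum amyloid, was at 9.41 CPM (8.63 to 10.3) and 291 CPM (286 to 295), a ratio of 4.81. Lcn2, which binds bacterial iron carriers, was at 5.27 and 86.8 CPM (3.81), and haptoglobin (Hp), which binds free haemoglobin, at 63.4 and 627 CPM (3.29). Immune barcodes held 43.2 and 47.0 CPM of Lcn2 and 95.6 and 356 CPM of Hp. The complement gene C7 was at 1363 and 862 CPM (−0.66). Hp was found in 5.47% and 31.2% of thinned members (13.5% and 47.6% unthinned), and in 16.6% and 15.3% of immune barcodes. The PBS share lay below that of immune barcodes. Whether immune cells make Hp themselves was not tested, so this share is read neither as expression nor as its absence.

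Among chemokine genes 4 of 14 were higher and none lower. Cxcl13, which attracts B cells, was at 12.4 and 88.0 CPM (2.73), Ccl8, which attracts monocytes, at 5.18 and 43.9 CPM (2.86), and Cxcl12, the ligand of Cxcr4, at 86.5 and 379 CPM (2.12). Immune barcodes held 7.44 and 73.1 CPM of Ccl8, and 51.6% of its UMIs in the bleomycin members came from 1 MatrixFB-like cluster described below, which held 10.3% of all their UMIs. Of 25 interferon and antigen presentation genes, 4 were higher and none lower, with the GTPase gene Iigp1 at 109 and 266 CPM (1.28).

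For the remaining lists, the counts past 2-fold stand beside 4.82% of all genes higher and 2.27% lower. The p53 target and senescence list had 2 of 16 higher and none lower. Of the cell cycle genes 2 of 9 were higher and none lower, among them the cyclin gene Ccnd1 at 6.82 and 41.6 CPM (2.44), with 76.3 and 80.2 CPM in immune barcodes. Only 9 of 25 listed cell cycle genes reached a mean of 10 CPM. Among proliferation markers below that mean, Top2a was at 0.804 and 10.2 CPM and Mki67 at 0.393 and 6.98 CPM, whereas Ccnb2 was at 6.59 and 7.42 CPM. Immune barcodes held 94.5 and 25.8 CPM of Top2a and 67.7 and 39.8 CPM of Mki67. In the remaining FBs, described below, Top2a was at 0.291 and 1.09 CPM and Mki67 at 0.117 and 0.486 CPM. In MatrixFB-like members they were at 0.232 and 0.649 CPM and at 0 and 0.541 CPM. The higher sums of Top2a and Mki67 thus came mostly from members outside these groups. Both were among the leading genes of the proliferating (PMP-like) cluster of 15 bleomycin members. Only 1 gene was higher and none lower among 23 ER folding and secretion genes, 16 glycolysis genes and 10 integrin and adhesion genes each, and 1 of 7 imprinted growth genes was lower. The medians of these last 4 lists were 0.44, 0.15, 0.27 and −0.05.

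Immediate early and stress genes, which cells switch on soon after a stimulus, were mostly lower after bleomycin, although 4 of the 35 entered had a positive log2 ratio. Of 35 entered, 10 were at least 2-fold lower and none higher, with a median of −0.75. Atf3, a stress-induced transcription factor, was at 878 CPM (870 to 885) and 233 CPM (229 to 237), a ratio of −1.91, and Maff, a small Maf factor, at 199 and 52.6 CPM (−1.90). The others past 2-fold were Gadd45b, Nr4a1, Egr2, Ppp1r15a, Btg2, Fosb, Nr4a3 and Egr1. The AP-1 genes Fos, Jun and Junb were lower by less, at 2642 and 1480 CPM (−0.84), 2330 and 1342 CPM (−0.80) and 2117 and 1259 CPM (−0.75). The heat shock gene Hspa1b was at 63.5 and 102 CPM (0.68).

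The window of 250 bases before the RefSeq start of these genes (build GRCm38.p6) was searched on both strands for TGACGTCA, the full cyclic AMP response element, which ATF and CREB factors are known to bind. It was found in 3 of the 9 lower early genes that had a promoter in the table (33.3%), in 4 of the 32 early genes entered (12.5%), in 219 of 6959 genes entered (3.15%) and in 478 of all 27025 genes of the promoter table (1.77%). The AP-1 element TGANTCA was found in 0 of the 9 and in 359 of the 6959 (5.16%), and the serum response CArG box in 1 of the 9 and 93 of the 6959 (1.34%). A match describes these letters only. The 3 promoters that hold it are shown 5′ to 3′ on the strand of the gene, with the element in capitals, because they place the same 8 letters at different distances from the start. The other early gene entered with the element, Dusp1, a phosphatase that inactivates MAP kinases, had a ratio of −0.99, just short of 2-fold lower, so the 3 of 9 depend on that limit. The window of Maff, for 1 of its 3 RefSeq starts, is chr15:79347270-79347519 on the plus strand, with the first base of the element 29 bases before the start. That of Ppp1r15a is chr7:45526269-45526518 on the minus strand, with 12 bases, and that of Btg2 is chr1:134079156-134079405 on the minus strand, with 166 bases.
Maff: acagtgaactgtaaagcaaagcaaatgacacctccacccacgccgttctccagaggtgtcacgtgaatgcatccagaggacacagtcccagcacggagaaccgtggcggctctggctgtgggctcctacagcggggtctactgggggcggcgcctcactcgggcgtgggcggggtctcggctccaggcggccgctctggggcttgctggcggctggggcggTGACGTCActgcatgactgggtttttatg
Ppp1r15a: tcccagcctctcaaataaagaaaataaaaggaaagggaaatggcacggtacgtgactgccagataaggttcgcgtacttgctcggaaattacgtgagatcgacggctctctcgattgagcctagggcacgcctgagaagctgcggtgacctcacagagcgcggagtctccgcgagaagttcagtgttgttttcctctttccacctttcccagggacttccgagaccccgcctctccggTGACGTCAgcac
Btg2: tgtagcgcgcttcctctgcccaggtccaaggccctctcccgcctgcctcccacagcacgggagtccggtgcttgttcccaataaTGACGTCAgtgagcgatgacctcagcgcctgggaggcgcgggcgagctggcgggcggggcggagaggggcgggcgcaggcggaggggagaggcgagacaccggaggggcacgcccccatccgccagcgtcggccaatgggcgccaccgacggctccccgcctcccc
Ppp1r15a, a phosphatase subunit that restores translation after stress, was at 109 and 46.6 CPM (−1.20), and the antiproliferative gene Btg2 at 1998 and 876 CPM (−1.19).

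Within a library the members were far from uniform. Each member was thinned to 2000 UMIs and the UMIs of a list were summed. For the 35 early genes the PBS members had a median of 41 UMIs, with 25th and 75th percentiles of 7 and 70, and the bleomycin members had a median of 14, with 6 and 33. The PBS distribution was thus broad and reached low values as well, and 18.4% of bleomycin members lay above the PBS median. LipoFB genes had medians of 48 and 20 UMIs, and 10.0% of bleomycin members lay above the PBS median. The 5 fibrillar collagens that were no part of the choice had medians of 2 and 11, and 58.9% of bleomycin members lay above the 95th percentile of PBS, 9 UMIs.

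For other lists the bleomycin members were set against the PBS median in the same way. Matricellular genes had medians of 12 and 22 UMIs with 82.6% of bleomycin members above the PBS median, and elastic fibre genes 6 and 15 with 90.5%. Complement and acute phase genes had medians of 12 and 17 with 65.5%, interferon genes 9 and 11 with 61.8%, and contractile genes 8 and 9 with 53.6%. The MyoFB-like cluster described below, with 9.60% of the bleomycin members and 15.9% of all their UMIs, held 30.7% of their Acta2 UMIs.

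**Figure D3:**
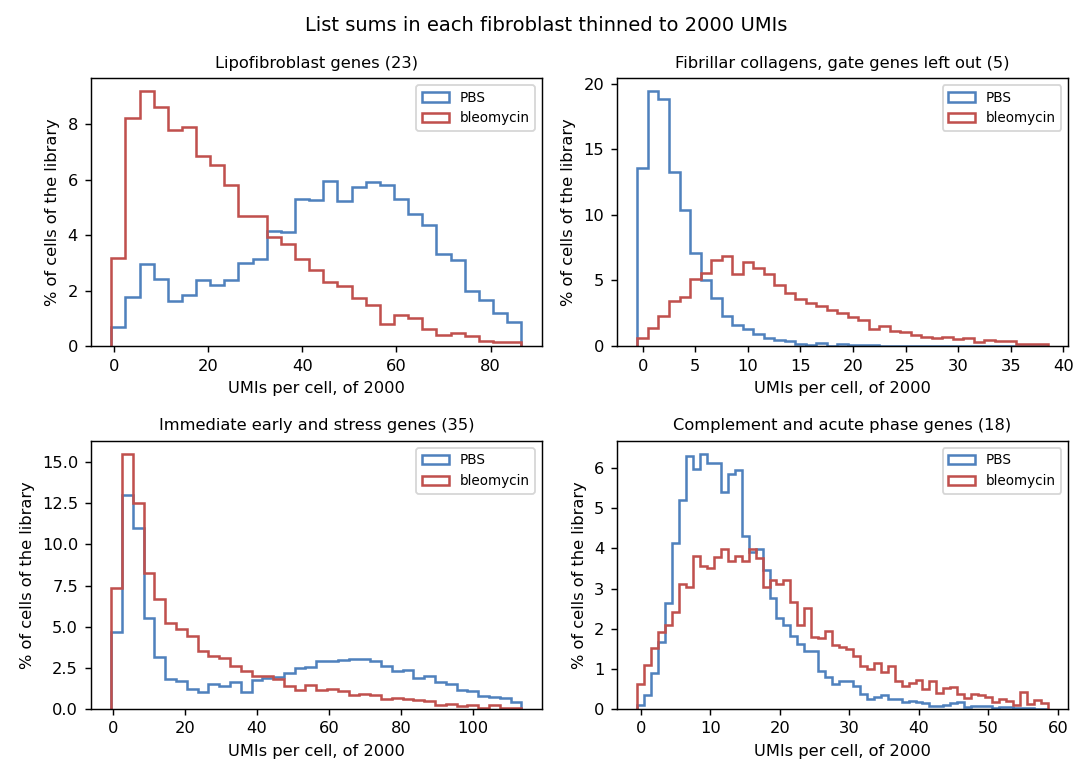
Distribution over members of the summed UMIs of 4 gene lists per member after thinning to 2000 UMIs (horizontal, UMIs; vertical, percent of the members of the library in each bin), with PBS in blue and bleomycin in red. The early genes form a low and a high hump in PBS around the median of 41 UMIs, and the fibrillar collagens without the genes used for the choice lie mostly below 9 UMIs in PBS and reach 30 at the 95th percentile of bleomycin. Members are cells of 1 library each and are not replicates.

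Clustering of the members without the listed and marker genes gave 22 clusters, and most came from 1 library. With 1 library per treatment, such a cluster may be that library and not a type. A cluster was named only where at least 3 and at least 50% of the markers of a population were raised in it. A LipoFB-like cluster held 956 PBS members (18.8%) and 20 bleomycin members (0.379%), and 16.7% to 33.1% of PBS members in the other clusterings tried. Markers had to be raised against all other members, so a type common among the members can go unnamed in several of its clusters. These shares are therefore not the shares of LipoFBs. After thinning, the LipoFB gene sum had 25th and 75th percentiles of 33 and 61 UMIs over all PBS members and of 10 and 34 UMIs over all bleomycin members. A MyoFB-like cluster (cluster 9), with 8 of 8 markers met and led by Spp1, Grem1 and Cthrc1, held 1 PBS member (0.0196%) and 507 bleomycin members (9.60%, 8.82 to 10.4). In the other clusterings tried the MyoFB-like share of bleomycin was 8.66% to 22.8%, so its size depends on the clustering.

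The MatrixFB-like clusters were shared by both libraries. They held 472 PBS members (9.26%, 8.48 to 10.1) and 1276 bleomycin members (24.2%, 23.02 to 25.34). In the other clusterings tried the bleomycin share was 15.02% to 25.9%, the lowest with the listed genes kept. Among members with at least 4000 UMIs the shares were 8.16% and 20.6%. Different clusters carried the class, since cluster 4, with 56 PBS and 827 bleomycin members, led by Ccl8, Gpc6 and Aldh1a2, held most of the bleomycin cells, and the other 2 had 242 and 228 and 174 and 221. The median depth of that bleomycin cluster was 0.528 of its library's. Wif1/Hhip FB-like clusters held 3.47% of PBS and 2.59% of bleomycin members, and the smooth muscle-like, mesothelial-like and proliferating (PMP-like) clusters each held under 1% of either library. The shares are those of sorted GFP+ cells above the UMI limit, and both can set them.

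Several lists differed less within the MatrixFB-like members than in the rest. Most MatrixFB-like members of PBS and of bleomycin lay in different clusters. In these ratios a shift between clusters and a difference within a cluster therefore cannot be told apart. LipoFB genes had a median log2 ratio of 0.01 in MatrixFB-like members and −0.93 in the 4614 PBS and 3668 bleomycin members outside the MatrixFB-like, smooth muscle-like, mesothelial-like and PMP-like clusters and those led by other cell types (the remaining FBs). In PBS, MatrixFB-like members and remaining FBs held 15.1 and 276 CPM of Col13a1 and 1707 and 4941 CPM of Inmt, but 194 and 87.1 CPM of Lpl. Within MatrixFB-like members Col13a1 had a ratio of 0.96 and Inmt of −0.98. The median near 0 thus covers both directions and does not show that these genes were unchanged there. Fibrillar collagens without Col1a1 and Col1a2 had medians of 0.88 and 1.47. Matricellular genes had 0.63 and 1.46, elastic fibre genes 0.34 and 1.04, other collagens 0.45 and 1.23, and contractile genes 0.14 and 0.65. The median of early genes was negative in both, at −1.18 in MatrixFB-like and −0.78 in remaining FBs, where the medians of all genes were 0.10 and 0.08.

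Single genes followed several patterns. Igfbp3 had a ratio of −0.61 in MatrixFB-like members (129 and 84.5 CPM) and −2.94 in remaining FBs (540 and 69.6 CPM). Fst and Dkk2 had −0.22 and −1.20 in MatrixFB-like members and 5.93 and 4.36 in remaining FBs, so their higher sums came from the latter. Saa3 and Chl1 differed by similar amounts in both, with 5.29 and 4.88 for Saa3 and 5.36 and 5.78 for Chl1. Decorin (Dcn), a proteoglycan that marks MatrixFBs, was at 2103 and 3165 CPM over all members (0.59), at 14609 and 11482 CPM within MatrixFB-like members (−0.35) and at 1045 and 1407 CPM in remaining FBs (0.43).

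**Figure D4:**
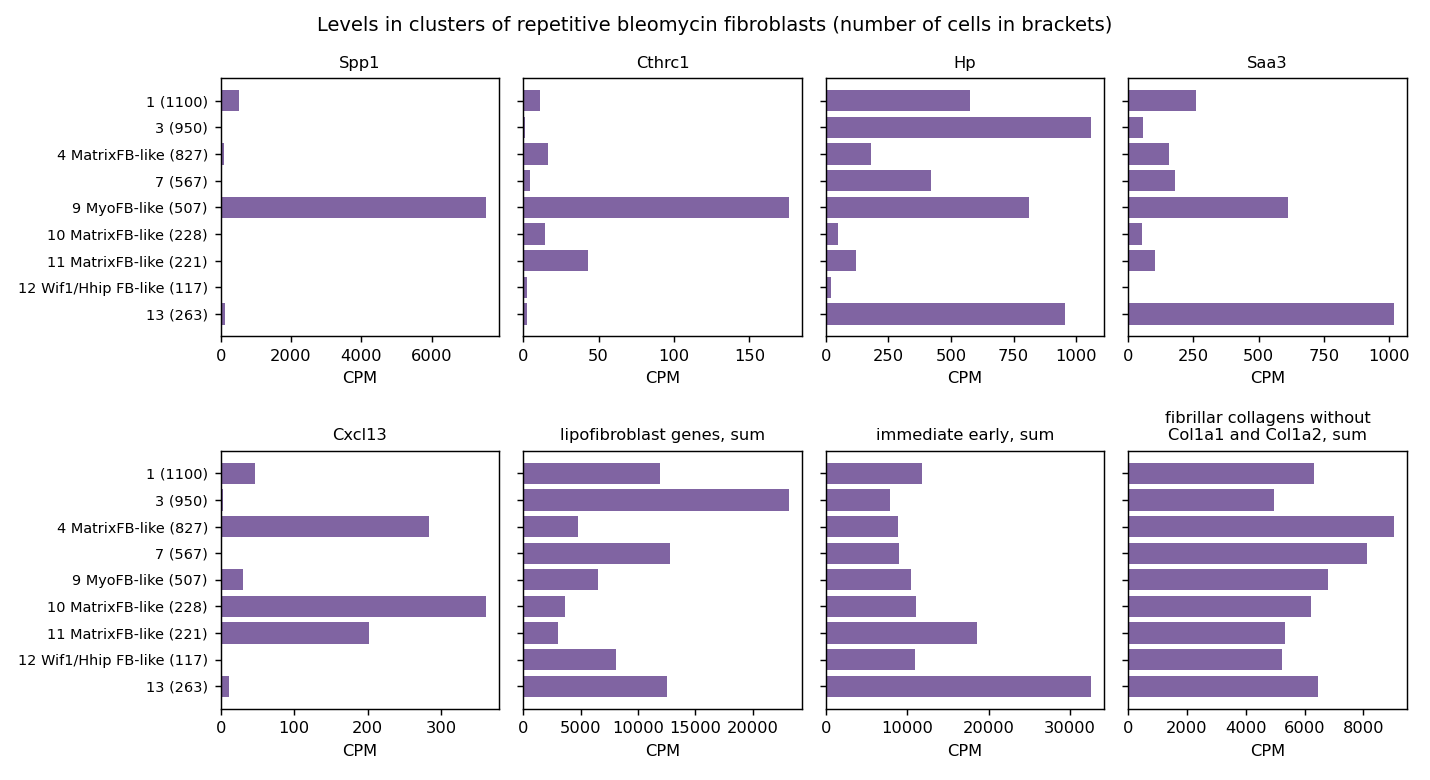
Levels of 5 genes and of 3 summed gene lists (horizontal, CPM; fibrillar collagens without Col1a1 and Col1a2) in the bleomycin members of the 9 clusters that held over 100 of them and were not led by genes of other cell types (vertical, cluster number with the number of members in brackets). Of the clusters drawn, Spp1 and Cthrc1 are high in the MyoFB-like cluster 9, Hp in clusters 3, 9 and 13, and Cxcl13 in the 3 MatrixFB-like clusters. The LipoFB genes are high in cluster 3, with 23102 CPM against 6486 CPM in cluster 9. Smaller clusters, among them the smooth muscle-like, mesothelial-like and PMP-like ones, are not drawn, so the panels do not cover all UMIs of a gene.

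The bleomycin clusters divided the injury genes among them. The values are descriptions, since the clusters were formed from the same cells. The MyoFB-like cluster held 9.60% of the bleomycin members and, with a median depth of 1.80 times that of its library, 15.9% of all their UMIs. It held 87.5% of their Spp1 UMIs, 83.9% of Grem1, 79.5% of Cthrc1, 66.5% of Dkk2, 62.8% of Inhba and 59.7% of Fst. Its level of Spp1 was 7551 CPM and of Acta2 277 CPM, where all bleomycin members had 1375 and 144 CPM. By contrast, Hp was at 812 CPM there and at 1059 CPM in the unnamed cluster 3, led by Cpm, C6 and Nnat, which held 950 bleomycin members.

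That second cluster had a sum of LipoFB genes of 23102 CPM, against 30355 CPM in the PBS members of the LipoFB-like cluster and 6486 CPM in the bleomycin MyoFB-like cluster. The LipoFB-like cluster was named because LipoFB markers were raised in it. Over all PBS members the 23 entered genes of the list summed to 22834 CPM, close to the sum in cluster 3. With 17.99% of the bleomycin members and 21.8% of all their UMIs, cluster 3 held 74.7% of the UMIs of Slc7a10, an amino acid transporter, 59.4% of Mapt, 44.4% of Tcf21 and 43.5% of Gsta3. Their levels there were still below those of the PBS members of the LipoFB-like cluster, at 43.7 against 134 CPM for Slc7a10, 88.97 against 242 CPM for Mapt, 377 against 772 CPM for Tcf21 and 301 against 1237 CPM for Gsta3. Its sum of fibrillar collagens without Col1a1 and Col1a2 was 4974 CPM, where the MyoFB-like cluster had 6812 CPM and the bleomycin-rich MatrixFB-like cluster 9028 CPM.

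Early genes also differed between clusters of 1 library. In PBS their sum was 34244 CPM in the cluster led by Mat2a and 37180 CPM in one led by genes such as Nr4a2 and Maff, but 5788 CPM in the LipoFB-like cluster and 7184 CPM in another. In bleomycin cluster 13, of 263 members and led by Gdnf, Rgs16 and Il6, had 32563 CPM, with Fos at 4097 CPM and Saa3 at 1016 CPM. These sums describe the clusters only, since the clusters were formed from the same cells. Whether the early genes differed by the number of cells or by the level per cell was not tested. Cluster 1, of 1100 bleomycin members and with 11791 CPM of early genes, had a median depth of only 3194 UMIs.

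The same rule applied to the libraries of the single exposure, 14 days after 1 dose, took 841 PBS and 797 bleomycin members. The labels give that dose as 2 U/kg in one field and 4 U/kg in another, so dose, schedule and library differ at once, although the time from the last dose to harvest is the same, and values are set side by side only. The gene tables also differ. The single-dose tables list 30830 genes for PBS and 30828 for bleomycin, and 20797 of the 32285 genes of the repetitive tables were matched to them by current or older symbol. The matched genes held 98.6% and 98.7% of the UMIs of the single-dose members and 95.7% and 95.8% of those of the repetitive members, and each CPM is relative to all genes of its own table, so levels of the 2 experiments are not on 1 scale. Of 7249 genes with a mean of at least 10 CPM in both experiments, 380 (5.24%) were at least 2-fold higher and 260 (3.59%) at least 2-fold lower after the single dose. The higher genes of both experiments shared 227, which is 76.4% of the 297 after repetitive and 59.7% of the 380 after single exposure. The lower genes shared 97, which is 65.5% of 148 and 37.3% of 260. The experiments share no library.

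List medians after the single dose were 1.95 for the 5 fibrillar collagens without Col1a1 and Col1a2, −1.03 for LipoFB genes, −1.13 for early genes and 0.95 for chemokines, beside 1.41, −1.06, −0.75 and 0.28 after repetitive exposure. Spp1 was at 1.69 and 3993 CPM after the single dose and Cthrc1 at 0.339 and 82.4 CPM. Csmd1 had 7 UMIs in PBS and 161 in bleomycin there (a log2 ratio of 2.96). Plin2 was at 133 and 101 CPM (−0.39) after the single dose, beside −1.33. Lox was at a log2 ratio of 1.32 after the single dose, beside 0.23.

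**Figure D5:**
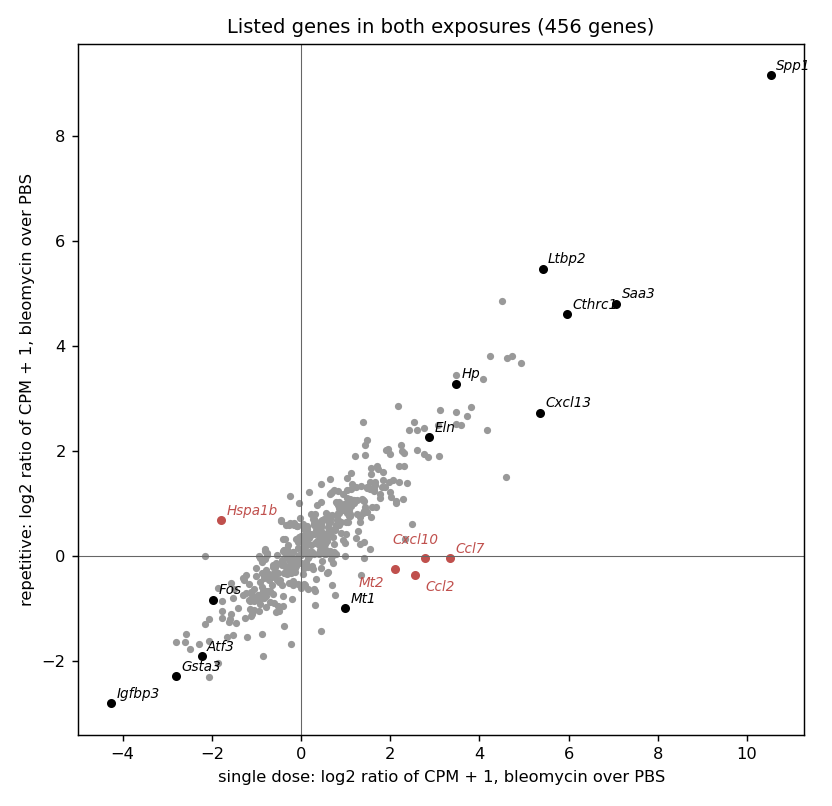
Log2 ratio of bleomycin over PBS after the single dose (horizontal) and after repetitive exposure (vertical) for the 456 listed genes entered in both experiments, with lines at 0. Spp1 lies at 10.53 and 9.16, Igfbp3 at −4.25 and −2.81, and the chemokine genes Ccl2, Ccl7 and Cxcl10 lie to the right near 0 on the vertical axis.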

How the data were processed

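Lungs of PDGFRa-EGFP mice were digested, GFP+ cells of 3 mice per treatment were sorted and pooled, and 1 droplet library per treatment was sequenced. The deposited values are raw UMI counts for each gene in each barcode, as the authors made them with Cell Ranger. The submitters' processing notes name Cell Ranger 3.0.1, Seurat 3 and mm10. The study's methods name an annotation and a kit version without saying whether they hold for the repetitive libraries. The gene tables of the repetitive and single-dose libraries differ, so this is not known. All 32285 genes of the repetitive tables were read.

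The members, the 28 gene lists (612 genes, 472 entered) and the comparisons were chosen with earlier results of these data known. Counts were summed over members and scaled to CPM. Genes with a mean of at least 10 CPM over both libraries were entered. Log2 ratios were taken with 1 CPM added to both levels, and at least 2-fold was used as the limit. No test between treatments was made. Named genes were the 2 genes at each end of every list, the 12 largest unlisted ratios in each direction (without mitochondrial, ribosomal, immunoglobulin, other-cell marker and predicted genes), the genes the study names for its populations and the 6 genes of the choice. Other listed genes that are named were picked after their values were seen. Doublets were removed only by the limits on Ptprc, Pecam1 and Epcam. Immune barcodes had at least 2 Ptprc UMIs.

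For clustering, listed, marker and mitochondrial genes were left out, 2000 variable genes were reduced to 30 components, and a graph of 20 neighbours was cut at a resolution of 1. A cluster was named where at least 3 and at least 50% of the markers of a population had a log2 ratio of at least 1 and reached 20% of its cells. Software was Python 3.11.15, numpy 2.4.6, pandas 2.3.3, scipy 1.17.1, scikit-learn 1.9.0, leidenalg 0.10.2, igraph 0.11.9 and matplotlib 3.10.9. The log2 ratio with its counting bounds and the thinning were tested on simulated counts, and the other steps were not. Promoter sequences came from RefSeq, build GRCm38.p6.

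The alternatives were other limits on UMIs, markers and mitochondrial share, thinning to 2000 UMIs, other scalings, pseudocounts and level filters, other clusterings, and members without other mesenchymal clusters. Leaving out the 4 clusters led by other cell types was chosen after seeing the data. Results of 2 genes that the rules would name are not reported here.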

Additional observations from a re-analysis of the deposited data

Results flagged for a closer look

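The log2 ratio (bleomycin over PBS) had opposite signs after repetitive exposure and after the single dose for 71 of 456 listed genes, and for 5 of these the ratios were also at least 2 apart. The same count over all genes entered in both experiments was not made, so these counts are read neither as many nor as few. For Ccl7 and Cxcl10 the repetitive ratio was close to 0. The difference between the exposures was not tested, as each had 1 library per treatment. Ccl7, a chemokine for monocytes, was at 45.2 and 44.0 CPM (−0.04) after repetitive exposure and 7.11 and 81.4 CPM (3.34) after the single dose, a difference of −3.38. Ccl2, the related chemokine, was at 131 and 102 CPM (−0.36) and at 20.2 and 123 CPM (2.55), a difference of −2.91. Cxcl10, an interferon-induced chemokine for T cells, was at 129 and 125 CPM (−0.04) and at 11.9 and 87.1 CPM (2.78), a difference of −2.82. Levels of the exposures are not on 1 scale, so only the ratios are set against each other.

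The metallothionein gene Mt2, which binds metal ions, was at 202 and 170 CPM (−0.25) after repetitive exposure and 384 and 1658 CPM (2.11) after the single dose, a difference of −2.35. The heat shock gene Hspa1b was at 63.5 and 102 CPM (0.68) and at 30.7 and 8.14 CPM (−1.79), a difference of 2.47.

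Barcodes outside the members were not part of the comparisons. In the bleomycin library, 394 immunoglobulin and J chain genes summed to 20633 CPM in those barcodes, against 1189 CPM in the PBS library. Within the members the sums were 523 CPM in PBS and 2122 CPM in bleomycin, or 6.26 and 170 CPM without the clusters led by genes of other cell types.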

How the results depend on the processing

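With a mean level of at least 1 CPM, 960 genes were at least 2-fold higher, and with at least 50 CPM, 138 were higher and 107 lower, since more or fewer genes were entered (13375 and 3416). As reported, 422 were higher and 199 lower of 8761, and the settings other than these filters gave 323 to 472 and 160 to 234. Centring on the median gene gave 371 and 234. Of the 97 named genes past 2-fold, 90 had a value after thinning, 57 with at least 50 CPM and all 97 in the other settings. None of those with a value changed direction, but some fell under 2-fold. These were Slco2a1 and Ly6a without the limit on Ptprc, Pecam1 and Epcam, Wnt2 with at least 10 marker UMIs, Tagln and Slc16a1 after thinning, Ccnd2 after centring, and Peg3, Slc16a1 and Zmat3 with 5 CPM added. Of the list medians of at least 1 in size, matricellular genes fell from 1.33 to 0.32 with a mean of at least 50 CPM and other collagens from 1.15 to 0.73 with at least 1 CPM. Among all 28 list medians, the sign changed for 1 after thinning, for 2 with at least 1 CPM and for 3 with at least 50 CPM. Without the clusters led by other cell types 415 and 193 were higher and lower, of which 413 and 193 were the same genes.

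The MatrixFB-like share of PBS members was 10.4% at a resolution of 2. In bleomycin it was 18.1% at a resolution of 0.5, 25.9% at a resolution of 2 and 15.02% with the listed genes kept, and the cause was not tested. Depth limits the ratios of genes near 0 in PBS, where 3 counts are 0.0536 CPM. No paired analysis was possible because each treatment had 1 library and no test was made.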

Other observations

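Further unlisted genes were far apart between the libraries. Megf11, a transmembrane protein with EGF-like repeats, was at 0.482 and 36.2 CPM (log2 ratio 4.65), and Frmd5, a FERM domain gene, at 7.09 and 200 CPM (4.64). Rgs16, which shortens G protein signals, was at 0.232 and 24.3 CPM (4.36), and the imprinted gene Nnat at 3.86 and 56.6 CPM (3.57). The prostaglandin transporter Slco2a1 was at 1.04 and 22.2 CPM (3.51), and 75.3% of its bleomycin UMIs came from the MyoFB-like cluster. Without the limit on Ptprc, Pecam1 and Epcam, the log2 ratio of Slco2a1 was 0.90. Periostin (Postn), a matricellular gene, was at 2.27 and 44.8 CPM (3.81).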
